A study of Mus musculus with 15 samples.

Results

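Side population (SP) cells of mouse brain tumour line 3447 were compared with SP cells of neurospheres across the genes of a whole-genome array. The 6 arrays, 3 of the 3447 SP and 3 of the neurosphere SP, were chosen by their titles from the 15 arrays of the series, and no measured value entered the choice. SP cells are sorted by flow cytometry because they stain weakly with a dye for DNA, which efflux pumps of the ABC family remove, and non-SP cells keep the stain. The series also holds 3 arrays each of 3447 non-SP cells, of SP cells of tumour line 4346 and of neurosphere non-SP cells.

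The 3447 SP group came from tumorspheres, floating cultures of tumour cells, of a line isolated from a brain tumour of a mouse with the S100beta-verbB transgene and a p53 genotype of -/- or +/-. These tumorspheres were injected into the brains of immunodeficient hosts (strain NOD.Cg-Prkdc scid Il2rg tm1Wjl/SzJ), and the 3 arrays are cultures from 3 of these mice. The neurosphere SP group is described as cultures from 3 independent mice with the same transgene and the same choice of p53 genotypes, although another passage of the labels places these cells in injected hosts, so their route is uncertain. All groups thus carry verbB, a viral and constitutively active relative of the EGF receptor, under the S100beta promoter, with 1 or both p53 alleles deleted. The labels do not give which p53 genotype belongs to which array, nor the ages of the mice. Line 3447 is a single tumour line, so spread between its arrays is spread between hosts and cultures and not between tumours. Cells of both groups were grown in culture before sorting.

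Neurospheres hold neural stem and progenitor cells, which divide in response to growth factors and can form neurons, astrocytes and oligodendrocytes. Oligodendrocyte progenitors are a separate proliferating glial cell that depends on PDGF receptor signalling and on the transcription factors Olig2 and Sox10. Sox10 and its relatives Sox8 and Sox9 form the SoxE group, which acts in glia, in the neural crest and, through Sox9, in cartilage.

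The 2 groups were far apart. Of 10957 genes tested, 1166 were higher in 3447 SP cells (10.6%) and 994 were lower (9.07%), together 19.7%, at an adjusted p under 0.05 in limma, a linear model with moderated variances. Adjusted p is Benjamini-Hochberg over all genes tested, tests are two-sided, and differences are log2 values of the quantile-normalized signal plus 16, 3447 SP minus neurosphere SP, given with their standard error. Because of the added 16, changes of genes with low signals are understated. Among the calls, 373 rose by more than 2 and 248 fell by more than 2 on this scale, and 66 and 40 passed 4. The 3 arrays of each group did not overlap for 1162 of the genes that rose and 990 of those that fell, while 18.8% of all tested genes were higher and 18.5% lower without overlap. Without 1 of the 3447 SP arrays the counts were 613, 659 and 602 higher and 604, 674 and 613 lower, for arrays 1, 2 and 3 in turn. Without neurosphere SP array 1 they were 923 and 588, and without arrays 2 and 3 of that group 1103 and 776, and 1173 and 781. With the same 10957 genes kept, the counts without a 3447 SP array were 767 to 833 higher and 640 to 715 lower.

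**Figure D1:**
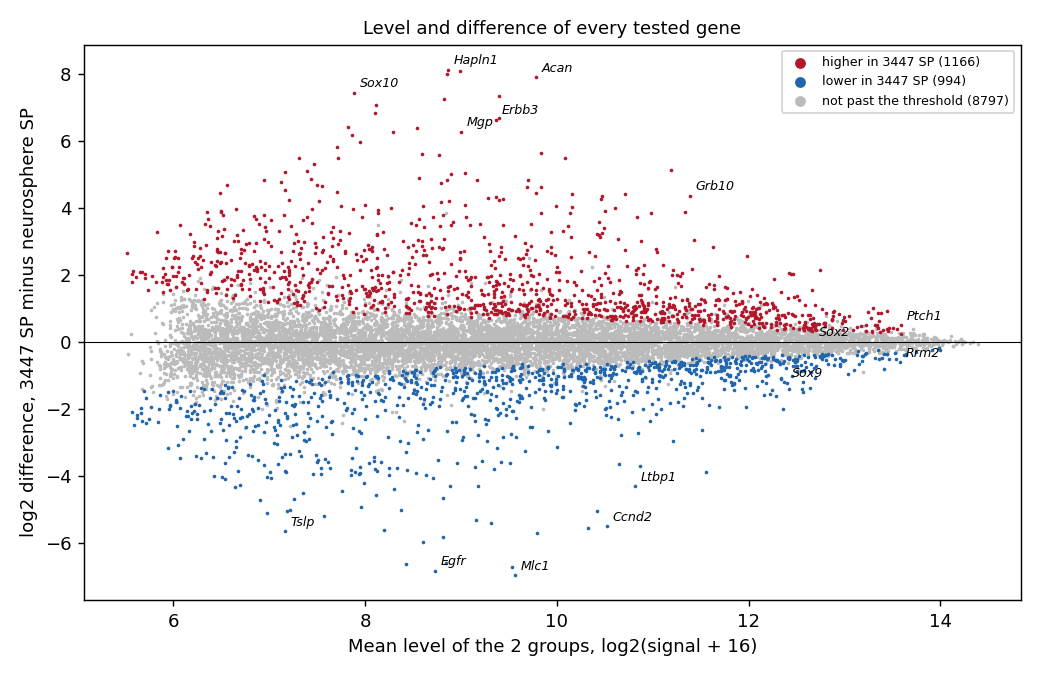
Difference between 3447 SP and neurosphere SP (vertical axis, log2) against the mean level of both groups (horizontal axis, log2 of signal plus 16) for each of the 10957 genes tested; colours mark the 1166 genes that rose and the 994 that fell. Hapln1, Acan and Sox10 stand at the top and Mlc1 and Egfr at the bottom, all at middle levels, and the spread narrows towards the right.

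Signals are the deposited MAS5 intensities. The median signal of an array lay at 63.0, 43.2 and 89.3 in 3447 SP arrays 1, 2 and 3, and between 49.6 and 56.7 in the neurosphere SP arrays, so signals at or below these medians are called near background here, with no detection calls used. Rank correlations between arrays were 0.846 to 0.914 within 3447 SP, 0.907 to 0.912 within neurosphere SP and 0.818 to 0.889 between the groups. In 3447 SP array 3 the mean correlation with its own group was 0.855. A gene entered the test when its probe set lay above the median of its own array on at least 3 of the 6 arrays. By this rule 193 genes passed on 3447 SP arrays alone, of which 160 rose, and 174 passed on neurosphere SP arrays alone, of which 127 fell. Such genes had to differ to be tested, so gene lists below are counted over all measured members without the filter, where 5.72% of 18193 genes were higher and 4.62% lower. Each unfiltered list count below is to be read against these shares. Centring each array on its median in place of quantile normalization moved the median difference over all genes to -0.19, against -0.03.

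Markers of other cell types were near background in part. Of 17 microglia and macrophage genes 14 lay below the array median on all 6 arrays, with a summed signal of 272 to 587 in 3447 SP and 416 to 790 in neurosphere SP. All 5 blood genes lay below it on all 6 arrays. For 11 endothelial genes the sums were 263 to 424 in 3447 SP and 698 to 2212 in neurosphere SP, and Flt1, a VEGF receptor, was lower in 3447 SP, with 34.9, 81.2 and 20.5 in 3447 SP and 379, 1990 and 265 in neurosphere SP (difference -3.52 ± 0.72, adjusted p = 0.00825). For 11 pericyte and smooth muscle genes they were 408 to 908 in 3447 SP and 1002 to 2405 in neurosphere SP, with 4 genes above the median on at least 3 arrays. For 14 genes of ependymal and ciliated cells they were 3198 to 3279 in 3447 SP and 4149 to 5737 in neurosphere SP. In sorted cells measured in bulk, fewer cells of a type and less RNA per cell cannot be told apart, and the part of such cells in the results below was not tested.

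Genes of cartilage matrix were among the most strongly raised. Cartilage matrix is a network of type II, IX and XI collagen fibrils around aggrecan, a large proteoglycan held on hyaluronan by link protein. Acan, which encodes aggrecan, had a signal of 13710, 13060 and 12890 on the 3447 SP arrays and of 32.7, 19.8 and 65.2 on the neurosphere SP arrays (difference 7.90 ± 0.29, adjusted p = 7.92e-07). Hapln1, the link protein, had 10040, 5634 and 7446 in 3447 SP and 12.2, 1.18 and 25.1 in neurosphere SP (8.12 ± 0.35, adjusted p = 1.44e-06). Col2a1, the type II collagen chain, had 6603, 6737 and 7911 in 3447 SP and 8.68, 29.5 and 1.89 in neurosphere SP (7.98 ± 0.36, adjusted p = 1.67e-06). All 3447 SP arrays were high for these 3 genes, and the neurosphere SP arrays were near background, apart from Acan on array 3 (65.2 against a median of 56.7), with no overlap. Hapln1 had 3 further probe sets, whose differences ran from 0.70 to 3.90.

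The other chains of the fibril followed the same pattern. Col9a1 and Col9a3, type IX chains on the fibril surface, had means of 6782 ± 1969 and 4084 ± 1083 in 3447 SP and of 50.8 ± 32.1 and 184 ± 122 in neurosphere SP (SD, n = 3 each; differences 6.68 ± 0.38 and 4.44 ± 0.39). Col11a1 and Col11a2, type XI chains inside the fibril, differed by 4.35 ± 0.36 and 3.88 ± 0.38. Fmod, fibromodulin, a small proteoglycan that binds collagen, had 2882, 2731 and 4035 in 3447 SP and 8.94, 11.2 and 1.41 in neurosphere SP (7.06 ± 0.30, adjusted p = 1.44e-06). Cnmd, chondromodulin, a cartilage glycoprotein that inhibits vessel growth, had 920, 739 and 850 in 3447 SP and 19.9, 2.69 and 2.97 in neurosphere SP (5.07 ± 0.36, adjusted p = 2.21e-05). Mgp, matrix Gla protein, an inhibitor of calcification that stood outside the list, averaged 4629 ± 1792 in 3447 SP and 37.7 ± 5.0 in neurosphere SP (6.27 ± 0.32, adjusted p = 4.73e-06). The groups did not overlap for any of these genes.

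Of 21 cartilage matrix genes with a probe set, 12 rose and 0 fell in limma without the filter (14 and 1 at an unadjusted p under 0.05), with a median difference of 2.23 over all 21 and of -0.01 over all 18193 genes. With the filter 14 were tested, 8 of them on the strength of the 3447 SP arrays alone, and the same count of 12 passed. Col9a2, Comp, Matn1, Matn3, Chad, Epyc and Prg4 did not reach the filter. Mia had a difference of 1.21 ± 0.39 that did not pass (adjusted p = 0.0554). When any 1 array was left out with the genes held fixed, 11 or 12 of the 14 passed.

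Promoter sequences are shown for genes at both ends of the comparison, from 250 bases before to 50 bases after the RefSeq start in assembly GRCm38.p6, 5′ to 3′, with each CG in capitals. Acan lies at chr7:79052976-79053275 on the plus strand and Hapln1 at chr13:89540386-89540685 on the plus strand. Egfr lies at chr11:16751953-16752252 on the plus strand and Mlc1 at chr15:88978504-88978803 on the minus strand, and these lowered genes are described further on.
Acan: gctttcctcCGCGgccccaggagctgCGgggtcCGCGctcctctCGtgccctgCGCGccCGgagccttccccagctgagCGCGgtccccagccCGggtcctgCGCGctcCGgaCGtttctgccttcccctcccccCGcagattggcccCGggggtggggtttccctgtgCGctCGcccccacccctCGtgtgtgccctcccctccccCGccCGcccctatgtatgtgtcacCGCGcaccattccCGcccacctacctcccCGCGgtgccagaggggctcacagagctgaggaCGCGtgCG
Hapln1: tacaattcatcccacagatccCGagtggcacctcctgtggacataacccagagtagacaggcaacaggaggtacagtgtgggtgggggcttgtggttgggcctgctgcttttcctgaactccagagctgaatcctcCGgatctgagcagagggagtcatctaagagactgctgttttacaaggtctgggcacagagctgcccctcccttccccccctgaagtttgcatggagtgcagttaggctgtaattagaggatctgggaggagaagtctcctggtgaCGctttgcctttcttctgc
Egfr: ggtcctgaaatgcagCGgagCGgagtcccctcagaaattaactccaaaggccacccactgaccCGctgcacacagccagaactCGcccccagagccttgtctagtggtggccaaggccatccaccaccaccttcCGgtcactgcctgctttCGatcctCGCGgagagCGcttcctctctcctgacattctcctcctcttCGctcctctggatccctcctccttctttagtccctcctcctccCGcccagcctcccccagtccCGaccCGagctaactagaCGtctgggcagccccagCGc
Mlc1: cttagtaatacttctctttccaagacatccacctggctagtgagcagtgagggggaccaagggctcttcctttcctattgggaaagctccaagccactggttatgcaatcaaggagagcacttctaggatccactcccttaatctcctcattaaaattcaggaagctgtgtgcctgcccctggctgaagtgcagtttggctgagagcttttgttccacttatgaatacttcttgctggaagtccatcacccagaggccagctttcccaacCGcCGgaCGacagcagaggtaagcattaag
The Acan window held 31 CG and the Hapln1 window 3, and among the lowered genes the Egfr window held 15 and the Mlc1 window 3. Thus both ends of the comparison held a CG-rich and a CG-poor window among those shown, which were picked. The window of the raised gene Fmod, not shown, held 3 CG and that of the lowered gene Gja1 held 8. Windows with at least 10 CG made up 78.2% of the 908 raised genes with a window, 82% of the 788 lowered genes and 86.5% of the 8929 tested genes with a window. For the raised cartilage genes the share was 22.2% of 9, with a median of 4 CG against 22 over tested genes. Tested genes are richer in CG than genes at large: over all 27025 genes with a window the share was 43.9% and the median 7. The core letters bound by Sox proteins, ACAAAG or ACAATG on either strand, were in 0 of the 9 cartilage windows. They were in 19.1% of raised genes, in 19.7% of lowered genes and in 18.5% of all tested genes with a window. Over all 27025 genes with a window the share was 28.8%. Of the 12 raised cartilage genes only 9 had a window, Col2a1 not among them. So few windows cannot set 0 apart from these shares, and sequence outside the windows was not searched.

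Collagens outside cartilage and other matrix genes moved in both directions. Of 24 further collagen genes 8 rose and 1 fell without the filter, with a median of 0.78. Col1a1, the main fibril collagen of connective tissue, averaged 1843 ± 938 in 3447 SP and 100 ± 30.5 in neurosphere SP (3.78 ± 0.41, adjusted p = 0.000271). Col6a1, a chain of the beaded filaments around cells, averaged 3174 ± 1110 in 3447 SP and 292 ± 49.6 in neurosphere SP (3.28 ± 0.29, adjusted p = 7.76e-05), and Col6a2, Col4a2, Col15a1, Col16a1, Col27a1 and Col3a1 also rose. Col12a1, a fibril-associated collagen, fell (mean 33.3 ± 29.7 in 3447 SP against 147 ± 71.4 in neurosphere SP, difference -2.07 ± 0.48, adjusted p = 0.0146). With 1 array left out, 6 to 9 of the 17 tested collagens were higher.

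Tnc, tenascin C, a matrix protein of the neural stem cell niche, had 1069, 827 and 772 in 3447 SP and 3496, 7676 and 3750 in neurosphere SP (-2.38 ± 0.29, adjusted p = 0.000506). The versican gene Vcan rose (1.25 ± 0.27) while Ncan, neurocan, a proteoglycan of nervous tissue, fell (-0.88 ± 0.22). Of 25 genes of brain matrix and adhesion 4 rose and 5 fell without the filter, and with it 6 rose and 5 fell among 20. Without 3447 SP array 3 only 3 were higher.

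Receptors that bind matrix changed in both directions. Itgb3, the integrin beta 3 chain, had 3013, 1376 and 1749 in 3447 SP and 1.45, 30.6 and 16.7 in neurosphere SP (5.96 ± 0.43, adjusted p = 2.68e-05), with 1 further probe set at 0.93. Itga5, the fibronectin receptor alpha chain, had 74.9, 17.3 and 102 in 3447 SP and 623, 659 and 1020 in neurosphere SP (-3.49 ± 0.34, adjusted p = 0.000154). Itga7, a laminin receptor chain, had 1.58, 11.9 and 6.32 in 3447 SP and 303, 278 and 125 in neurosphere SP (-3.41 ± 0.48, adjusted p = 0.00122). Itgb3 was thus near background in neurosphere SP and Itga7 in 3447 SP, whereas Itga5 lay above the array median on 2 of the 3447 SP arrays. Of 23 integrin and laminin genes 4 rose and 5 fell without the filter.

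Proteases of the matrix and their inhibitors changed as well. Mmp16, a membrane-bound metalloprotease, had 1860, 1351 and 1802 in 3447 SP and 96.9, 121 and 126 in neurosphere SP (3.59 ± 0.24, adjusted p = 1.81e-05). Timp1, a secreted metalloprotease inhibitor, had 58.6, 16.3 and 50 in 3447 SP and 989, 455 and 481 in neurosphere SP (-3.59 ± 0.37, adjusted p = 0.000212). Its relatives Timp2 and Timp3 moved the other way, by 2.11 ± 0.24 and 2.03 ± 0.36. Adamts4, a protease that cuts aggrecan, fell to 2708 ± 1072 in 3447 SP, against 10850 ± 550 in neurosphere SP (-2.02 ± 0.23, adjusted p = 0.000312). Of 18 genes on this list 4 rose and 4 fell.

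**Figure D2:**
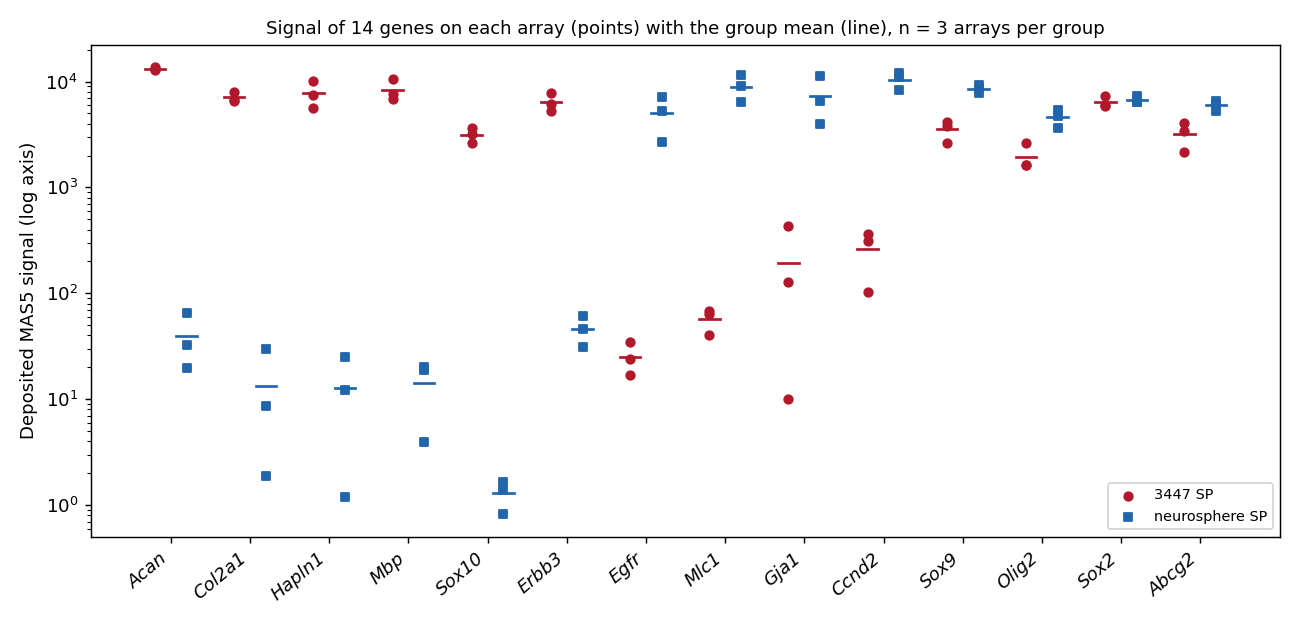
Deposited MAS5 signal (vertical log axis) of 14 genes on each of the 3 arrays of 3447 SP (circles, left of each pair) and of neurosphere SP (squares, right), with group means as lines. The groups are separated for each gene but Sox2, and the 3447 SP arrays of Gja1 spread from 10.1 to 436.

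Oligodendrocyte lineage genes rose, with exceptions among their transcription factors. Sox10, the SoxE factor that activates myelin genes, had 2602, 3607 and 3160 in 3447 SP and 0.82, 1.67 and 1.39 in neurosphere SP (7.44 ± 0.26, adjusted p = 7.92e-07). Mbp, myelin basic protein, had 7572, 10520 and 6859 in 3447 SP and 18.9, 3.98 and 20.1 in neurosphere SP (8.09 ± 0.29, adjusted p = 7.92e-07). Pdgfra, the PDGF receptor that marks oligodendrocyte progenitors, had 4605, 3083 and 4900 in 3447 SP and 187, 1325 and 310 in neurosphere SP (3.19 ± 0.56, adjusted p = 0.00396). Sox10 and Mbp were near 0 in neurosphere SP, whereas Pdgfra was present on all 6 arrays, with neurosphere SP array 2 nearest to the 3447 SP arrays. The 7 further probe sets of Mbp ran from 0.63 to 7.99.

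Further progenitor genes rose: Cspg4, the NG2 proteoglycan, with 1206 ± 253 in 3447 SP and 123 ± 48.3 in neurosphere SP (3.07 ± 0.32, adjusted p = 0.00021), Lhfpl3 (2.86 ± 0.50), C1ql1 (3.20 ± 0.53) and Gpr17 (2.22 ± 0.54), a receptor of cells committed to become oligodendrocytes. Olig2, a transcription factor of the whole lineage, went the other way, with 1616, 1639 and 2601 in 3447 SP and 4762, 5384 and 3613 in neurosphere SP (-1.23 ± 0.23, adjusted p = 0.00558). Its neighbour Olig1 (-1.26 ± 0.31) and Sox8, the remaining SoxE factor (-1.48 ± 0.37), also fell. Both Olig genes were still well above the array median in 3447 SP. Of 16 progenitor genes 7 rose and 3 fell without the filter, with a median of 1.43.

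Myelin genes were counted separately. Bcas1, a marker of newly forming oligodendrocytes, had 6105, 8259 and 8085 in 3447 SP and 98.8, 415 and 842 in neurosphere SP (4.4 ± 0.56, adjusted p = 0.000675). Cldn11, the claudin of myelin tight junctions, had 6945, 5867 and 3246 in 3447 SP and 80.8, 184 and 650 in neurosphere SP (4.41 ± 0.58, adjusted p = 0.000807). Enpp6, an enzyme of new oligodendrocytes, Fa2h and Ugt8a, which make the galactolipids of myelin, and Tspan2 rose by 4.23 ± 0.48, 2.24 ± 0.36, 3.07 ± 0.62 and 2.87 ± 0.33. Mag, Mog, Mobp, Mal and Aspa did not reach the filter, and Opalin had 39.5 ± 52.2 in 3447 SP and 52.3 ± 37.1 in neurosphere SP (-0.63 ± 0.64, adjusted p = 0.549). Of 17 myelin genes 7 rose and 0 fell in limma without the filter (9 and 0 at an unadjusted p under 0.05), with a median of 0.90.

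Neural crest and Schwann cell genes rose in part. Snai2, a zinc finger factor of migrating neural crest cells, had 3195, 2151 and 3643 in 3447 SP and 6.07, 2.08 and 22 in neurosphere SP (6.84 ± 0.34, adjusted p = 3.6e-06). Erbb3, a neuregulin receptor of Schwann cells and oligodendrocyte progenitors, had 7796, 6178 and 5271 in 3447 SP and 61.0, 30.9 and 45.5 in neurosphere SP (6.63 ± 0.27, adjusted p = 1.05e-06). In neurosphere SP Snai2 was near background on each array and Erbb3 on arrays 2 and 3, but a further probe set of Erbb3 gave -0.10. Pmp22, a myelin protein of peripheral nerve, Cdh19 and Mitf, the melanocyte factor, rose by 1.10 ± 0.15, 2.82 ± 0.45 and 1.99 ± 0.29, and Tfap2a, a factor of the neural crest, fell (-2.39 ± 0.66, adjusted p = 0.0304). Of 16 genes 5 rose and 1 fell without the filter, and Foxd3, Ngfr and Pax3 did not reach it.

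Of 13 SoxB, SoxD and SoxE genes 2 rose and 2 fell without the filter. Sox9, with Sox5 and Sox6 the known activator of type II collagen and aggrecan in cartilage, had 2621, 4174 and 3816 in 3447 SP and 8528, 9288 and 7873 in neurosphere SP (-1.23 ± 0.18, adjusted p = 0.0013). Sox6 had 5752, 5709 and 5139 in 3447 SP and 1387, 2383 and 1585 in neurosphere SP (1.71 ± 0.20, adjusted p = 0.000469). Sox5 had 231 ± 76.0 in 3447 SP and 145 ± 37.3 in neurosphere SP, a difference that did not pass (0.48 ± 0.32, adjusted p = 0.347). So Sox9 was lower, though well above the array median, in the group where the cartilage genes were high. Of the 2 further probe sets of Sox9 the lower gave -1.28 and the higher 0.66. Sox2, the factor of neural stem cells, had 6006, 7326 and 5815 in 3447 SP and 7262, 6345 and 6460 in neurosphere SP, with overlapping arrays (0.02 ± 0.11, adjusted p = 0.914).

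**Figure D3:**
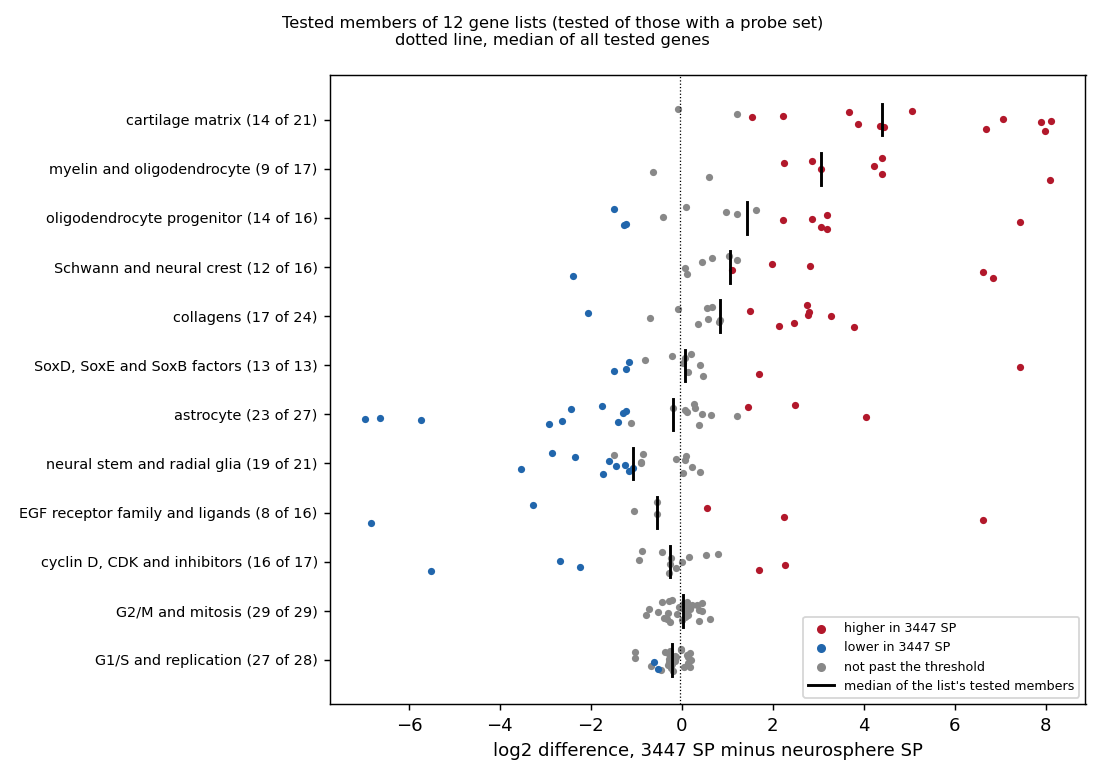
Difference between 3447 SP and neurosphere SP (horizontal axis, log2) of each tested member of 12 gene lists (rows, with the number tested of those with a probe set); black bars are list medians and the dotted line is the median of all tested genes, -0.03. The cartilage and myelin rows lie to the right and hold no gene that fell, and the neural stem row holds no gene that rose. Only genes past the filter are drawn. Of these, 8 of the 14 cartilage and 3 of the 9 myelin genes passed it on 3447 SP arrays alone, so they had to lie to the right. Over all members with a probe set the medians were 2.23 for cartilage and 0.90 for myelin.

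Genes of astrocytes were mostly lower where they changed. Mlc1, a membrane protein of astrocyte endfeet, had 68.7, 40.7 and 63.2 in 3447 SP and 9037, 11440 and 6436 in neurosphere SP (-6.97 ± 0.28, adjusted p = 1.05e-06). Slc4a4, the sodium bicarbonate cotransporter, had 3.09, 4.08 and 95.5 in 3447 SP and 2937, 4588 and 3047 in neurosphere SP (-6.64 ± 0.48, adjusted p = 2.64e-05). Gja1, connexin 43, the main gap junction protein of astrocytes, had 436, 10.1 and 129 in 3447 SP and 6544, 11190 and 3960 in neurosphere SP (-5.73 ± 0.76, adjusted p = 0.000864). The neurosphere SP arrays were high for each, and the 3447 SP arrays were low, with Gja1 highest on array 1.

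Aqp4, Slc1a3, Aldh1l1, Ppp1r3c, Hepacam and Clu also fell, with differences of -2.93 to -1.29. Slc1a3, the glutamate transporter GLAST, kept a signal of 3717 ± 878 in 3447 SP against 10680 ± 3865 in neurosphere SP (-1.40 ± 0.24, adjusted p = 0.00344). The rise of S100b stood against these: it had 5212, 3796 and 3310 in 3447 SP and 89.4, 366 and 313 in neurosphere SP (4.05 ± 0.42, adjusted p = 0.000212). S100b, a calcium-binding protein, is also the gene whose promoter drives the transgene. Id4 and Ndrg2 rose by 1.46 ± 0.27 and 2.48 ± 0.37. Gfap, the intermediate filament of astrocytes, was low, with 156 ± 90.5 in 3447 SP and 85.7 ± 47.0 in neurosphere SP (0.38 ± 0.58, adjusted p = 0.693). Of 27 astrocyte genes 3 rose and 8 fell without the filter, with a median of -0.58; among the 23 tested, 10 fell, and 7 without 3447 SP array 3.

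Of the genes of neural stem cells and radial glia, those that changed fell. Nes, nestin, the intermediate filament of neural stem cells, had 482, 390 and 336 in 3447 SP and 1145, 1461 and 1312 in neurosphere SP (-1.72 ± 0.23, adjusted p = 0.000912). Prom1, the CD133 antigen, had 12.2, 14.5 and 34.8 in 3447 SP and 116, 1281 and 322 in neurosphere SP (-3.54 ± 0.68, adjusted p = 0.00598). Nr2e1, the orphan nuclear receptor Tlx, had 169, 318 and 368 in 3447 SP and 850, 2068 and 1451 in neurosphere SP (-2.34 ± 0.39, adjusted p = 0.00274). The 3 arrays of the 2 groups were apart for each, and Prom1 varied more than 10-fold among the neurosphere SP arrays. Emx2, Pax6, Hes1, Msi1, Tead2 and Sox3 fell, with differences of -2.85 to -1.08. Of 21 genes 0 rose and 7 fell in limma without the filter (0 and 11 at an unadjusted p under 0.05), with a median of -0.91, and 9 fell among the 19 tested.

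Neuroblast and neuronal genes were few and divided. Dlx2, a homeobox factor of forebrain interneurons, had 82.0, 251 and 259 in 3447 SP and 1496, 982 and 1850 in neurosphere SP (-2.94 ± 0.43, adjusted p = 0.0014). Gad1, the enzyme that makes GABA, fell as well (-2.52 ± 0.41), but a further probe set gave 0.86. Tubb3, a neuronal tubulin, had 562, 606 and 524 in 3447 SP and 120, 115 and 16.3 in neurosphere SP (2.71 ± 0.53, adjusted p = 0.00698). Of 18 genes 1 rose and 3 fell without the filter.

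Members of the EGF receptor family moved in opposite directions. Egfr, the EGF receptor, through which neurospheres are kept dividing in culture, had 16.9, 24.1 and 34.6 in 3447 SP and 2689, 7145 and 5213 in neurosphere SP (-6.84 ± 0.37, adjusted p = 6.11e-06). All 3447 SP arrays were near background, and its 6 further probe sets ran from -6.03 to -0.19. With neurosphere SP array 3 left out and the filter applied anew, Egfr was represented by a dim probe set at -0.53, and with the same probe set kept the call held. No probe set used here is named for the verbB transgene. Lrig1, a membrane protein that promotes degradation of EGF receptors, had 217, 269 and 287 in 3447 SP and 2851, 3966 and 1402 in neurosphere SP (-3.26 ± 0.35, adjusted p = 0.000245). Tgfa, an EGF receptor ligand, had 572, 356 and 443 in 3447 SP and 75.5, 93.6 and 56.2 in neurosphere SP (2.24 ± 0.31, adjusted p = 0.00101). Errfi1, an intracellular feedback inhibitor of EGF receptors, had 6869, 9902 and 8433 in 3447 SP and 6251, 5696 and 6089 in neurosphere SP (0.56 ± 0.12, adjusted p = 0.0112), and it did not pass with array medians (0.26, adjusted p = 0.712). Egfr and Lrig1 were thus lower, Tgfa and Erbb3 were higher, and the feedback genes Lrig1 and Errfi1 differed in direction. Erbb2, with which Erbb3 signals, did not reach the filter. Of 16 genes 4 rose and 2 fell without the filter.

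Feedback genes of the MAP kinase pathway fell where they changed. Spry4 (-1.86 ± 0.36) and Spry2 (-0.48 ± 0.08), Sprouty inhibitors of receptor signalling, fell, and so did Dusp5, a phosphatase of ERK (-0.98 ± 0.18). Of 15 genes 0 rose and 3 fell in limma without the filter (0 and 4 at an unadjusted p under 0.05).

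Other growth factor systems held large single changes. Igfbp2, an insulin-like growth factor binding protein, had 55.4, 86.3 and 129 in 3447 SP and 3337, 3021 and 7298 in neurosphere SP (-5.41 ± 0.37, adjusted p = 1.81e-05). Igfbp3 had 2107, 2484 and 1589 in 3447 SP and 8832, 7741 and 8036 in neurosphere SP (-1.96 ± 0.17, adjusted p = 6.14e-05). Fgf1, a fibroblast growth factor, had 67.6, 22.1 and 145 in 3447 SP and 867, 783 and 1905 in neurosphere SP (-3.77 ± 0.43, adjusted p = 0.000369). The RNA of these 3 secreted proteins was lower on every 3447 SP array. Kit, a receptor kinase, Fgfr2 and Pdgfa, a ligand of Pdgfra, rose by 2.09 ± 0.54, 0.96 ± 0.24 and 0.90 ± 0.26. The 2 further probe sets of Fgfr2 gave -0.25 and 0.25. Of 26 genes 4 rose and 3 fell without the filter.

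Among Wnt and TGF-beta genes, some that encode secreted proteins held large changes of RNA in both directions. Dkk3, a secreted member of the Dickkopf family, had 2294, 1225 and 3142 in 3447 SP and 1.00, 17.3 and 6.48 in neurosphere SP (6.41 ± 0.42, adjusted p = 1.57e-05). Wnt5a, a ligand that acts mainly without beta-catenin, had 260, 381 and 224 in 3447 SP and 2224, 2735 and 1101 in neurosphere SP (-2.76 ± 0.36, adjusted p = 0.00076). Ltbp1, which holds latent TGF-beta in the matrix, had 252, 580 and 439 in 3447 SP and 9630, 7108 and 8121 in neurosphere SP (-4.31 ± 0.29, adjusted p = 1.81e-05). Each gene separated the groups on every array, but 2 further probe sets of Ltbp1 gave only -0.85 and -0.17. The ligand gene Wnt7a fell (-3.62 ± 0.59), and Lef1 and Tcf7l1, transcription factors of the pathway, rose by 2.78 ± 0.77 and 1.56 ± 0.32. Of 31 Wnt genes 5 rose and 3 fell without the filter, and 5 and 7 among the 17 tested; without 3447 SP array 3 the tested genes gave 3 and 3.

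Bmpr1b, a BMP receptor, had 70.2, 80.7 and 18.7 in 3447 SP and 740, 1734 and 632 in neurosphere SP (-3.95 ± 0.55, adjusted p = 0.00107). Chrdl1, a secreted BMP antagonist, fell (-3.02 ± 0.43), and Id3, a target of BMP signalling, rose by 1.27 ± 0.24. Lfng, a glycosyltransferase that modifies Notch, fell to 229 ± 132 in 3447 SP, against 1526 ± 450 in neurosphere SP (-2.77 ± 0.38, adjusted p = 0.00103), and Notch3 fell (-2.37 ± 0.43) while Hey2, a Notch target, rose by 2.79 ± 0.44. In the Hedgehog pathway, the co-receptors Gas1 (-1.44 ± 0.21) and Cdon (-2.38 ± 0.45) fell. Ptch1, the receptor and a target of the pathway, and Hhip, a binding protein, rose by 0.50 ± 0.08 and 1.98 ± 0.49. Without the filter 2 rose and 4 fell of 31 TGF-beta and BMP genes. The counts were 1 and 2 of 21 Notch genes, and 2 and 2 of 13 Hedgehog genes. Over all 18193 genes the shares were 5.72% higher and 4.62% lower.

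Cell cycle genes differed at the D cyclins and not broadly. Ccnd2, cyclin D2, had 364, 312 and 102 in 3447 SP and 8326, 11970 and 10990 in neurosphere SP (-5.52 ± 0.47, adjusted p = 6.5e-05), and its 6 further probe sets ran from -5.72 to -4.29. Ccnd3, cyclin D3, had 1082, 1149 and 1309 in 3447 SP and 298, 263 and 491 in neurosphere SP (1.70 ± 0.27, adjusted p = 0.00236), and its 2 further probe sets gave -0.15 and 0.97. Ccnd1, cyclin D1, was high in both groups, with 10490 ± 1446 in 3447 SP and 13540 ± 2369 in neurosphere SP (-0.29 ± 0.13, adjusted p = 0.157). The D cyclins thus differed in direction. Cdkn1a, the CDK inhibitor p21, had 2370, 4675 and 3019 in 3447 SP and 1025, 327 and 824 in neurosphere SP (2.26 ± 0.41, adjusted p = 0.00426), and Cdkn2b (-2.68 ± 0.68) and Cdk6 (-2.24 ± 0.56) fell. The 2 further probe sets of Cdk6 gave -1.69 and 0.18. Of 28 measured G1/S genes 0 rose and 2 fell in limma, Mcm4 (-0.53 ± 0.13) and Rrm2 (-0.61 ± 0.11), with 0 and 5 at an unadjusted p under 0.05. Of 29 G2/M genes 0 passed in either direction in limma, and 0 had an unadjusted p under 0.05. Mki67, the Ki-67 antigen, had 3270, 1866 and 2943 in 3447 SP and 1378, 2423 and 2395 in neurosphere SP, with overlapping arrays (0.38 ± 0.29, adjusted p = 0.399).

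Cdkn2a, which encodes p16 and p19ARF, had 1001, 658 and 608 in 3447 SP and 535, 744 and 864 in neurosphere SP (0.01 ± 0.28, adjusted p = 0.987). Of 22 measured genes of p53 targets Cdkn1a and Phlda3 rose and 0 fell in limma (4 and 3 at an unadjusted p under 0.05). Phlda3, an inhibitor of Akt, had 387, 483 and 337 in 3447 SP and 45.5, 41.7 and 39.2 in neurosphere SP (2.65 ± 0.29, adjusted p = 0.00029). The groups were apart for both genes, and the remaining members did not pass.

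Abcg2, the transporter best known for pumping the dye out of SP cells, was present in both sorted groups. It had 4099, 2142 and 3416 in 3447 SP and 6139, 6512 and 5259 in neurosphere SP (-0.87 ± 0.23, adjusted p = 0.0254), so the groups did not overlap. The call was lost on the same genes without 3447 SP array 3 (adjusted p = 0.0511) and without neurosphere SP array 1 or 2 (adjusted p = 0.0705 and 0.0672). Abcb1b, a P-glycoprotein gene, was low, with 130 ± 38.5 in 3447 SP and 134 ± 24.0 in neurosphere SP (-0.27 ± 0.34, adjusted p = 0.628). Of the cholesterol exporters, Abcg1 had 751 ± 194 in 3447 SP and 102 ± 38.6 in neurosphere SP and rose (2.60 ± 0.32), and Abca1 had 530 ± 159 in 3447 SP and 1182 ± 248 in neurosphere SP and fell (-1.21 ± 0.27). A further probe set of Abcg1 gave -0.07. Of 23 transporter genes 4 rose and 2 fell without the filter.

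Glutamate receptors and ion channels moved in both directions. Grm5, metabotropic glutamate receptor 5, had 31.4, 12.3 and 68.0 in 3447 SP and 3983, 5846 and 4207 in neurosphere SP (-6.62 ± 0.26, adjusted p = 1.05e-06). Gria4, an AMPA receptor subunit, had 1699, 1193 and 1891 in 3447 SP and 57.0, 83.3 and 77.8 in neurosphere SP (4.06 ± 0.27, adjusted p = 1.67e-05), and Grik3, a kainate receptor subunit, rose by 3.64 ± 0.51 while Grm3 fell (-3.14 ± 0.44). Of 20 glutamate receptor genes 2 rose and 2 fell without the filter. Slc6a11 (-4.06 ± 0.63), a GABA transporter, and Slc7a11 (-2.78 ± 0.42), the cystine-glutamate exchanger, fell, and Slc1a1, a glutamate transporter, rose by 3.91 ± 0.30. Of 23 solute carrier genes 1 rose and 2 fell without the filter, beside 5.72% and 4.62% of all 18193 genes. Of 27 potassium and sodium channel genes 5 rose and 4 fell without the filter, among them Kcna6 (2.95 ± 0.47) and Kcnj16 (-2.01 ± 0.31). The 2 further probe sets of Kcna6 gave -0.06 and 0.27.

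Of 21 carbonic anhydrase and S100 genes 6 rose and 2 fell without the filter. Car2, a carbonic anhydrase of glia, had 11.8, 26.7 and 89.5 in 3447 SP and 3211, 3962 and 2401 in neurosphere SP (-5.99 ± 0.39, adjusted p = 1.57e-05). S100a4 had 8778, 7090 and 3432 in 3447 SP and 654, 395 and 185 in neurosphere SP (3.98 ± 0.45, adjusted p = 0.000355). S100a1, S100a6 and Car5b rose by 3.29 ± 0.46, 3.46 ± 0.64 and 3.25 ± 0.32, so these S100 genes and Car2 moved apart.

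Axon guidance ligands and receptors moved in both directions. Unc5c, a netrin receptor, had 2724, 2425 and 2930 in 3447 SP and 63.1, 83.3 and 44.8 in neurosphere SP (5.0 ± 0.27, adjusted p = 5.79e-06). Sema3d, a secreted semaphorin, had 2303, 1549 and 2397 in 3447 SP and 28.4, 46.4 and 78.0 in neurosphere SP (4.88 ± 0.32, adjusted p = 1.61e-05). Robo1, a receptor for Slit proteins, had 161, 72.7 and 47.4 in 3447 SP and 1819, 3715 and 7196 in neurosphere SP (-5.33 ± 0.55, adjusted p = 0.000211), although its 2 further probe sets gave only -0.86 and -0.67. Slit3 and Slit2, its ligands, rose by 3.29 ± 0.39 and 2.31 ± 0.54, so ligand and receptor differed in opposite directions. Of 43 genes 9 rose and 7 fell without the filter. Cntn1, a contactin that acts in axon-glia contact, rose to 9782 ± 2079 in 3447 SP, against 914 ± 965 in neurosphere SP (3.89 ± 0.56, adjusted p = 0.00133), and Cdh20, a cadherin, fell (-3.09 ± 0.44). Of 31 cadherin and adhesion molecule genes 2 rose and 5 fell without the filter, beside 5.72% and 4.62% of all 18193 genes.

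Of 46 measured factors that mark position along the neural tube 4 rose and 3 fell without the filter, shares near the 5.72% and 4.62% of all genes. Irx1, Irx2 and Hoxa2, factors of the midbrain and hindbrain, and Hoxa10, of the trunk, rose by 2.54 ± 0.54, 2.70 ± 0.40, 2.01 ± 0.45 and 2.83 ± 0.68, and Meis2, which with Emx2 and Pax6 acts in the forebrain, fell (-2.43 ± 0.36). Emx2 had 98.2, 471 and 450 in 3447 SP and 2174, 1895 and 2012 in neurosphere SP (-2.85 ± 0.51, adjusted p = 0.00408). Hoxa3 had 1594, 1721 and 1869 in 3447 SP and 23.7, 4.54 and 1759 in neurosphere SP and did not pass (3.84 ± 1.30, adjusted p = 0.0666). Neurosphere SP array 3 thus reached the level of the 3447 SP arrays for Hoxa3, unlike the other neurosphere SP arrays. Without neurosphere SP array 3, as many as 8 of the 15 tested factors rose. Among imprinted genes Grb10, an adaptor that inhibits insulin and IGF receptors, had 10790, 12530 and 12280 in 3447 SP and 2090, 1218 and 61.5 in neurosphere SP (4.36 ± 0.96, adjusted p = 0.0114), and Ndn, necdin, fell (-2.26 ± 0.35). Of 20 imprinted genes 3 rose and 3 fell without the filter.

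Further genes stood at the extremes. Nxf3, of the nuclear RNA export factor family and on the germline list, of which 1 gene rose and 1 fell among 25 without the filter, had 7362, 5255 and 4076 in 3447 SP and 4.87, 82.8 and 4.11 in neurosphere SP (7.26 ± 0.57, adjusted p = 4.51e-05). Susd5, a membrane protein with a Sushi domain, had 7909, 7504 and 9645 in 3447 SP and 22.8, 57.2 and 26.9 in neurosphere SP (7.35 ± 0.30, adjusted p = 1.05e-06). Dusp15, a phosphatase, and Capn6, a calpain without protease activity, rose by 6.39 ± 0.38 and 6.27 ± 0.41. On the other side Adgrl2, latrophilin 2, an adhesion G protein-coupled receptor, had 118, 13.6 and 88.8 in 3447 SP and 6735, 7663 and 9377 in neurosphere SP (-6.72 ± 0.38, adjusted p = 6.52e-06). Of 18 receptors of that class 3 rose and 1 fell without the filter. The neuronal membrane glycoprotein Gpm6a (-5.56 ± 0.25), the lysosomal protease Ctsz (-5.22 ± 0.32), the lymphatic growth protein Ccbe1 (-5.62 ± 0.30), Lratd1 (-5.84 ± 0.41) and the cytokine Tslp (-5.66 ± 0.45) also fell. On the 15 highest genes the 3447 SP arrays ran from 1225 to 13710 and the neurosphere SP arrays from 0.82 to 84.9. On the 15 lowest the 3447 SP arrays ran from 1.77 to 436 and the neurosphere SP arrays from 486 to 11970. These genes were chosen among calls whose arrays did not overlap, so the separation of each gene follows from the choice.

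Hypoxia, cytokine, detoxification and stress genes changed singly. Adm, adrenomedullin, a vasodilator peptide induced by hypoxia, had 98.1, 330 and 366 in 3447 SP and 7319, 8354 and 8716 in neurosphere SP (-5.05 ± 0.42, adjusted p = 5.79e-05), while P4ha2, a collagen prolyl hydroxylase, rose by 3.12 ± 0.34. Of 22 hypoxia and glycolysis genes 1 rose and 2 fell, and 1 and 1 without the filter, beside 5.72% and 4.62% of all 18193 genes. The chemokine gene Ccl2 fell (-3.44 ± 0.56) and Cxcl14 rose by 2.67 ± 0.36. Gsta4, a glutathione transferase (-4.57 ± 0.64), and Aldh1a3, which makes retinoic acid (-3.91 ± 0.56), fell. Without the filter 2 rose and 4 fell of 27 chemokine and cytokine genes, 1 and 3 of 23 detoxification genes, and 2 and 1 of 17 aldehyde dehydrogenase genes. Of 22 respiratory chain genes 0 rose and 6 fell in limma, and 0 and 4 without the filter (0 and 8 at an unadjusted p under 0.05). Among 28 immediate early and stress genes 3 rose and 3 fell, with Nr4a1, an early response receptor, at 1839 ± 293 in 3447 SP and 306 ± 87.8 in neurosphere SP (2.50 ± 0.27, adjusted p = 0.000232).

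Called genes with the highest mean level over both groups differed little, and ranking by that mean keeps out genes that were low in 1 group, such as Acan and Grb10. Ptch1, Rbbp7, a histone-binding protein, Prr13, Tubb2b, a tubulin, and Eif3e, a translation factor, were the raised genes with the highest level and differed by 0.24 to 0.50. Atp5a1, a subunit of ATP synthase, Cd24a, Cd81, a tetraspanin, Fth1, ferritin heavy chain, and Rps29, a ribosomal protein, were the lowered genes with the highest level and differed by -0.37 to -0.19. Fth1 had 10890 ± 501 in 3447 SP and 14900 ± 1241 in neurosphere SP. Differences of this size are near the shift of -0.19 that array medians gave over all genes.

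Of 185 named genes that passed, 36 no longer passed with 1 array left out and the genes held fixed, 33 of them in more than 1 of the 6 fits. Their differences stayed at 0.6 to 1.35 times the value on all 6 arrays. They moved by more than 1.5 times for Aldh1l1, Aqp4, Kirrel3, Lef1 and Pdgfa, whose smallest differences were -1.70, -1.91, -1.05, 1.74 and 0.54. Abca1, Aldh1l1, Aqp4, Cd24a, Cd81, Cdk6, Clu, Col16a1, Col3a1, Eif3e, Erdr1, Fgfr2, Hes1, Hhip, Hoxa10, Kirrel3, Kit, Lef1, Msi1, Ncan, Olig1, Pdgfa, Rps29, Slit2, Sox3, Sox8 and Tubb2b no longer passed without 3447 SP array 1. Without array 2 of that group Errfi1, Fth1, Hoxa2 and Tfap2a were also lost, and without array 3 Abcg2, Cdkn2b, Gpr17 and Vcan, beside genes already named. The losses without neurosphere SP array 1, 2 or 3 were among these genes, apart from Col12a1 without array 3. Of the 185 genes, 134 passed under every alternative that gave a value.

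Differences were spread unevenly over chromosomes. Of 426 tested genes on chromosome 15, 29.8% rose and 2.82% fell, with a median difference of 0.47; on chromosome 8 the shares were 19% and 2.79% of 609, with a median of 0.33, and on X 28.3% and 7.75% of 374, with a median of 0.27. On chromosome 19, 4.22% of 379 genes rose and 20.6% fell (median -0.46), and chromosomes 12, 16, 9, 18 and 10 had medians of -0.35, -0.34, -0.31, -0.28 and -0.26. Per array, the chromosome 15 medians were 0.36, 0.51 and 0.55 on the 3447 SP arrays and 0.01, 0.01 and -0.01 on the neurosphere SP arrays, each against the neurosphere mean. Those of chromosome 19 were -0.47, -0.30 and -0.50 on the 3447 SP arrays and 0.04, -0.07 and 0.04 on the neurosphere SP arrays. Chromosome 10 was less even, with -0.30, -0.15 and -0.28 on the 3447 SP arrays and -0.08, 0.19 and -0.11 on the neurosphere SP arrays. The direction for these 9 chromosomes held with array medians and with the deposited scaling, whereas the medians of chromosomes 2, 6, 11 and 17 changed sign with array medians and that of chromosome 4 with the deposited scaling.

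**Figure D4:**
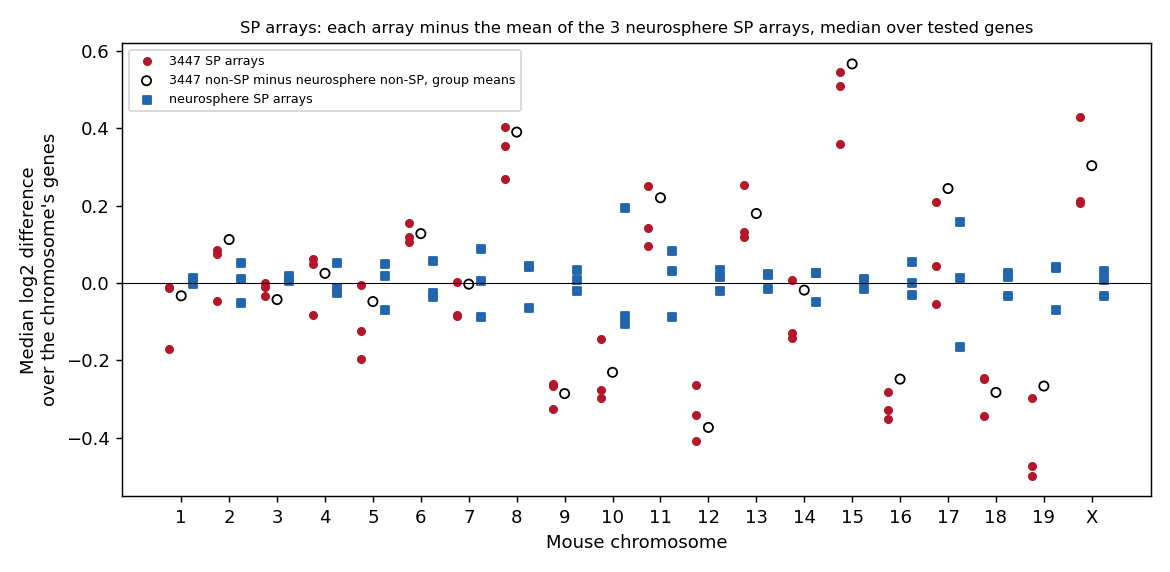
Median log2 difference (vertical axis) over the tested genes of each chromosome (horizontal axis), for each 3447 SP array and each neurosphere SP array against the mean of the 3 neurosphere SP arrays, with the non-SP comparison as open circles. Chromosomes 8 and 15 lie above 0 and 9, 12, 16, 18 and 19 below 0 on all 3 tumour arrays.

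On some chromosomes the shift ran along the whole length. Medians over windows of 20 neighbouring tested genes were above 0 in 407 of 407 windows on chromosome 15 and in 590 of 590 on chromosome 8, and in 0 of 277 on chromosome 18 and 0 of 360 on chromosome 19. On X 266 of 355 windows were above 0, and the lowest was -0.29. The highest window median, 1.28, was reached from Ubqln2 to Reps2 on X, with 16 of 20 genes raised, and in an overlapping window. The lowest, -0.84, was reached from Kirrel3 to Siae on chromosome 9, with 8 genes lowered, and in overlapping windows. Xist, the RNA of the inactive X, had 29.4, 30.5 and 101 in 3447 SP and 86.8, 30.7 and 7628 in neurosphere SP, so neurosphere SP array 3 alone was high. A gene above the median on fewer than 3 of the 6 SP arrays does not reach the filter. The Y-linked genes Eif2s3y, Kdm5d, Uty and Zfy2 did not reach it, which does not show that they were silent in both groups. Of these and Xist, 5 genes, 0 passed either way in limma without the filter (0 higher and 3 lower at an unadjusted p under 0.05). Their median difference was -2.52. In non-SP cells, where the filter used all 15 arrays, all 5 were tested and 2 fell, with a median of -2.89. The X median was 0.30 against neurosphere SP arrays 1 and 2 and 0.30 against array 3.

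The same contrast was made in non-SP cells, on 6 arrays that the SP comparison does not use. There 1332 genes rose (11.2% of 11908) and 978 fell (8.21%), in a model of all 15 arrays. Of the genes raised in SP cells 870 also rose in non-SP cells, which is 74.6% of the SP and 65.3% of the non-SP calls, and 658 fell in both, 66.2% and 67.3%. In the non-SP fit 1161 of the 1166 raised and 985 of the 994 lowered genes had the same sign, and 0 passed limma's threshold the opposite way. Each of the 15 highest and 15 lowest genes passed in non-SP cells as well, at 5.55 to 8.61 and at -8.36 to -4.51. SP and non-SP cells of a culture are not independent animals, so these counts show the same cultures again. Of 17 cartilage genes tested in non-SP cells 10 rose.

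**Figure D5:**
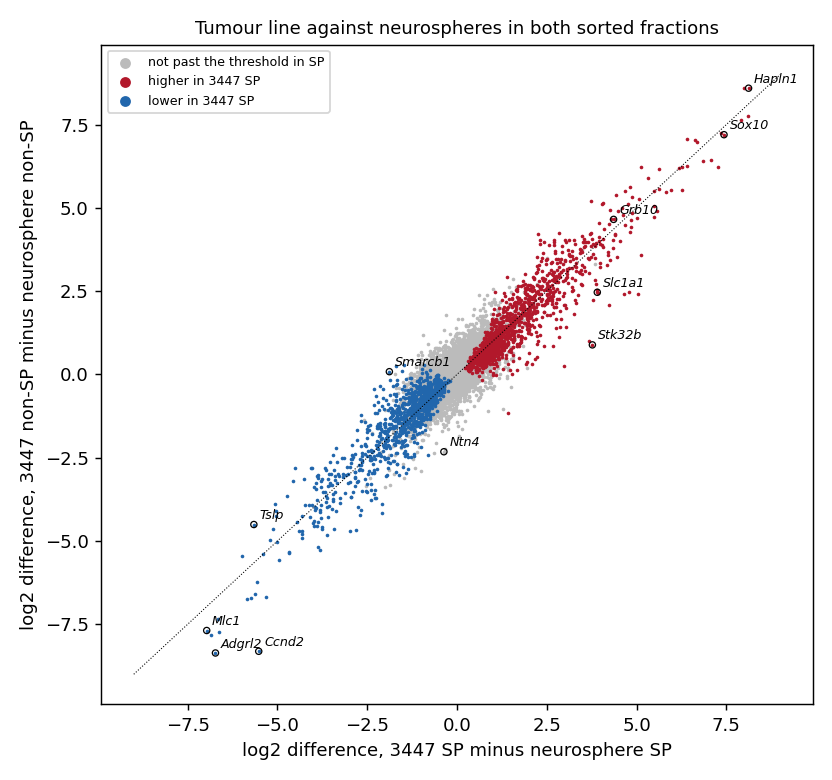
Difference between tumour line 3447 and neurospheres in SP cells (horizontal axis, log2) and in non-SP cells (vertical axis, log2) for each gene tested in both, coloured by the call in SP cells; the dotted line marks equal differences. Raised and lowered genes lie along the line, and Stk32b, Slc1a1, Smarcb1 and Ntn4 lie off it.

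Whether the tumour difference itself differed between SP and non-SP cells was tested as an interaction over all 15 arrays. The share of genes called was 0% in each direction in limma, with 266 genes at an unadjusted p under 0.05. Same-numbered SP and non-SP arrays of neurospheres deviated together (correlations of 0.577, 0.522 and 0.621), and those of line 3447 did not (-0.225, -0.249 and -0.12). In line 3447, SP array 1 with non-SP array 2 gave 0.366, 2 with 3 gave 0.296 and 3 with 1 gave 0.217. The other differently numbered arrays gave -0.177 to -0.034. Whether 3447 fractions share cultures under other numbers was not tested, so a block by number may join unrelated 3447 arrays. With the replicate number as a block in both kinds of culture 2 genes passed, Itga6, an integrin alpha chain of laminin receptors (interaction 1.6 ± 0.16, adjusted p = 0.00579), and Arhgap29 (2.07 ± 0.27, adjusted p = 0.0361), among 716 genes with an unadjusted p under 0.05. Both were lower in 3447 than in neurospheres by less in SP cells (-0.80 for Itga6 and -2.10 for Arhgap29) than in non-SP cells (-2.42 and -4.17). When only the neurospheres were blocked, the count was 0 in limma, with 412 genes under the unadjusted threshold. Without a block, smallest in p were Stk32b, a kinase gene (interaction 2.99 ± 0.66), Smarcb1, a subunit of the SWI/SNF chromatin complex (-1.97 ± 0.46), Slc1a1 (1.46 ± 0.36), Ntn4, a netrin (1.95 ± 0.50), and Palm2 (1.63 ± 0.42), each with an adjusted p of 0.999 in limma. Smarcb1 had 403, 926 and 604 in 3447 SP and 2451, 2374 and 1940 in neurosphere SP, beside 2540, 1677 and 2090 in 3447 non-SP and 1449, 3231 and 1562 in neurosphere non-SP. Its SP difference of -1.88 ± 0.30 passed (adjusted p = 0.00214) and its non-SP difference of 0.08 did not, but the difference between them did not pass.

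The SP cells of the other tumour line, 4346, were set against 3447 SP directly, since both lines share the neurosphere arrays as control. Here 55 genes were higher in 3447 SP (0.462% of 11908) and 142 lower (1.19%). The counts depended on single arrays: they were 34 and 88, 25 and 89, and 24 and 83 without 3447 SP arrays 1, 2 and 3, and 43 and 99, 114 and 194, and 38 and 79 without 4346 SP arrays 1, 2 and 3. Of the 15 genes most raised against neurospheres 0 passed in limma, with differences of -0.76 to 0.62 between the lines. Acan had 13710, 13060 and 12890 in 3447 SP and 11480, 12710 and 15950 in 4346 SP, and Sox10 had 2602, 3607 and 3160 in 3447 SP and 5289, 3433 and 8730 in 4346 SP (-0.76, adjusted p = 0.286). Of the 15 most lowered genes 6 were lower in 3447 SP than in 4346 SP, among them Ctsz, with 15.7, 3.33 and 44.1 in 3447 SP and 1372, 885 and 2728 in 4346 SP (-5.70, adjusted p = 1.16e-07). These 15 genes were chosen with the same 3447 SP arrays, which favours this direction.

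Genes with the smallest p between the lines included both kinds of change. Erdr1 had 6952, 7811 and 6405 in 3447 SP and 12.3, 29.6 and 7.25 in 4346 SP (7.70, adjusted p = 1.03e-11), and Sox1, a neural stem cell factor, had 1419, 2528 and 2158 in 3447 SP and 0.85, 1.03 and 7.21 in 4346 SP (6.68, adjusted p = 1.25e-07). Both were near background in 4346 SP, and in neurosphere SP their signals were 6313, 4361 and 5310 for Erdr1 and 786, 1493 and 2748 for Sox1. Ctr9, a subunit of the PAF1 complex, had 3717, 3588 and 4969 in 3447 SP, 108, 118 and 120 in 4346 SP and 110, 252 and 101 in neurosphere SP, but its 4 further probe sets differed from neurosphere SP by -0.23 to 0.43 only. Ppic, cyclophilin C, was lower in 3447 SP than in 4346 SP (-4.82, adjusted p = 6.23e-07) and than in neurosphere SP (-3.99 ± 0.33).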

How the data were processed

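Each array measured RNA of sorted cells, isolated with RNeasy Micro, amplified with Ovation Pico and labelled with biotin, per the labels' protocols. The values are intensities that the authors deposited as MAS5 signals from Affymetrix Expression Console (version not stated), per the submitters' processing notes. Each array was scaled by the authors to a trimmed mean of 500. The number of arrays limits the precision. Replicates are separate host mice or mice, per the labels.

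The 6 SP arrays of line 3447 and neurospheres were quantile-normalized with each other and taken as log2(signal + 16). Of 45101 probe sets, 64 controls were left out, 34945 had 1 gene symbol, 932 had several and 9160 had none, by the platform annotation, and 34741 matched RefSeq (GRCm38.p6) by gene identifier. Probe sets above their own array's median on at least 3 arrays were kept, and each gene was taken at its probe set with the highest mean. Groups were compared with limma 3.58.1 in R 4.3.3 (lmFit, and eBayes with trend). The other comparisons used all 15 arrays and 5 group means. The procedure was tested on simulated data.

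Gene lists and compared groups were chosen with earlier results of these data known, and the lists may include genes picked because they changed on these arrays. Named genes were the 15 highest and 15 lowest calls with non-overlapping arrays, up to 6 members of each list with the smallest p, a set of markers, the 5 called genes of highest level in each direction, and 5 genes from each other comparison. Other list members, among them the genes given as not passing, and Arhgap29 were chosen after their values were seen. Alternatives changed the scaling, added constant, filter, probe set rule, variance model, block and arrays. Leaving out an array with the genes held fixed and the block within neurospheres alone were chosen after seeing the data.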

Additional observations from a re-analysis of the deposited data

Results flagged for a closer look

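Among the 30 genes with the highest and lowest differences from neurosphere SP, 6 differed between the tumour lines in the direct test, 3447 SP minus 4346 SP over all 15 arrays (limma, adjusted p under 0.05). All 6 were lower in 3447 SP. Over all 11908 genes 0.462% were higher and 1.19% lower in 3447 SP. The 30 genes were chosen with the same 3447 SP arrays, which favours low 3447 SP values among the lowest genes. The log2 difference between the lines was -4.91 for Adgrl2, -2.37 for Lratd1, -3.90 for Gja1, -4.29 for Ccnd2, -3.91 for Robo1 and -5.70 for Ctsz.

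Adgrl2, a latrophilin, had signals of 118, 13.6 and 88.8 in 3447 SP and 3463, 2356 and 994 in 4346 SP. Ccnd2, cyclin D2, had 364, 312 and 102 in 3447 SP and 1155, 9135 and 6678 in 4346 SP. Gja1, connexin 43, had 436, 10.1 and 129 in 3447 SP and 2121, 2369 and 1039 in 4346 SP. The arrays of the lines were separated for all of these, and the 4346 SP arrays of Ccnd2 varied most.

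Robo1, a Slit receptor, had 161, 72.7 and 47.4 in 3447 SP and 1173, 1884 and 916 in 4346 SP. Ctsz, a lysosomal protease, had 15.7, 3.33 and 44.1 in 3447 SP and 1372, 885 and 2728 in 4346 SP. Lratd1 had 21.5, 77.1 and 65.2 in 3447 SP and 509, 193 and 175 in 4346 SP. These genes were also separated on every array between the lines.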

How the results depend on the processing

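The direction of the 185 named genes that passed was kept under each alternative that gave a value, except Eif3e, which turned to -0.042 with array medians, and 134 of them passed under each. Array medians in place of quantile normalization gave 719 genes higher and 851 lower in 3447 SP than in neurosphere SP, so that 45.8% of the calls were higher, against 54%. They gave 23 higher and 344 lower than 4346 SP, 6.27% against 27.9%, and in non-SP cells 1199 higher and 553 lower, 68.4% against 57.7%.

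With 1 array left out, the main comparison had 602 to 1173 genes higher and 588 to 781 lower, and on the same genes 767 to 1171 and 640 to 891. The comparison with 4346 SP had 24 to 114 higher and 79 to 194 lower, and the interaction 0 to 1 higher, the 1 without 4346 SP array 1. In part this is by construction, since a gene above the median on 3 arrays alone cannot pass the filter once 1 of them is left out, and Ccbe1 was then represented by another probe set at -0.66 to -0.27.

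Among genes that did not pass, Sox2 was -0.28 with array medians, -0.073 with the deposited scaling and -0.055 to 0.084 with single arrays left out. Cdkn2a was -0.13 with array medians and -0.20 to 0.15 with single arrays left out. Over the same left-out arrays Gfap ran from -0.11 to 1.07 and Sox1 from -0.044 to 0.84. The cause of these changes was not tested.

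Same-numbered 3447 SP and neurosphere SP arrays had correlations of -0.172, -0.225 and 0.038 between their deviations. The labels do not say whether the numbers pair the samples of the main comparison, and 3 arrays per group cannot settle it. Between same-numbered SP and non-SP arrays the correlations were 0.522 to 0.621 in neurospheres and -0.249 to -0.12 in line 3447. Differently numbered 3447 arrays gave -0.177 to 0.366, and whether 3447 fractions share cultures under other numbers was not tested. With the replicate block the main comparison had 985 genes higher and 767 lower, and the interaction 2 higher and 0 lower in limma, with 716 at an unadjusted p under 0.05. A block within neurospheres alone gave 0 and 0, with 412 at an unadjusted p under 0.05. Signals near the array median limit the precision of low genes.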
